A study of Mus musculus and Mus musculus musculus x Mus musculus castaneus with 52 samples.

Results

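Pou5f1, Sox2 and 6 further factors of pluripotency (Sall4, Foxd3, Utf1, Dppa2, Dppa4 and Lin28a) were followed through 24 RNA sequencing libraries of mouse pluripotent stem cells. They were chosen by name as general factors shared by the naive and primed states, and all 8 were found among the 16687 genes of the deposited table. The study asked how the number of X chromosomes bears on mouse stem cells, and its libraries form 12 groups. Female iPSC lines (induced pluripotent stem cells) LV20, LV21 and LV22 were XX at passage 7 (P7) and are named XO in the series at passage 13 (P13), while the male lines LV4, LV8 and LV16 were XY at both passages. Embryonic stem cells (ESCs) at P5 were the XX lines CM1 and CM2 and the XY lines CM3 and CM7. A further experiment compared 0 h and 24 h without LIF, the cytokine that sustains mouse ESCs in serum, in the wild-type XX line F121, the wild-type XY line V6.5 and 2 XX clones labelled Dusp9+/-. All lines other than the Dusp9+/- clones are labelled wild type. F121, the Dusp9+/- clones and the CM lines are crosses of Mus musculus musculus with castaneus, whereas V6.5 and the LV lines are Mus musculus. F121 and V6.5 are 1 line each, so a group of that genotype held 1 library at each time. By the labels, the withdrawal cultures had serum and no feeder cells. Fibroblast and feeder markers were nevertheless present at 0 h, at 751 CPM in F121 and 798 CPM in V6.5 (sum of 10 genes). Feeders are named for the accessibility cultures of the series, which are not analysed here.

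Pou5f1 (Oct4, a POU-domain factor) and Sox2 (an HMG-box factor) bind DNA side by side at composite sites and hold the pluripotent network together. Sall4, a zinc-finger protein, works with them and recruits repressive chromatin complexes. Foxd3 is a forkhead factor needed to maintain epiblast cells and stem cells. Utf1 is a chromatin-bound factor and a classical target of Pou5f1 and Sox2. Dppa2 and Dppa4 are paired SAP-domain proteins that prime developmental and early-embryo promoters. Lin28a is an RNA-binding protein that blocks maturation of let-7 microRNAs and rises as cells move from the naive towards the primed state.

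All 8 genes are autosomal, so none sits on the chromosome whose dosage differs. In GRCm38.p6 coordinates of RefSeq, Pou5f1 lies on chromosome 17 (35506032 to 35510777), Sox2 on 3 (34649995 to 34652461), Sall4 on 2 (168748332 to 168767201) and Utf1 on 7 (139943856 to 139945112). Foxd3 (99656299 to 99658671) and Lin28a (134003330 to 134019196) are both on chromosome 4. Dppa4 (48283735 to 48294292) and Dppa2 (48310274 to 48319513) are neighbours on chromosome 16, separated by 15982 bases.

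The RefSeq promoter table held 5 of the 8 genes (Pou5f1, Sox2, Utf1, Lin28a and Foxd3). The 250 bases upstream of the start are shown for 3 genes with called changes below: Pou5f1 and Foxd3, which rose together in the male lines, and Utf1, which rose without LIF. They lie on the plus strand at chr17:35505782-35506031, chr4:99656049-99656298 and chr7:139943606-139943855. Capitals mark matches to GGGCGG (the GC box) or AGGTCA (the core site of nuclear receptors) on either strand in Pou5f1 and Utf1, and every CG dinucleotide in Foxd3.
Pou5f1: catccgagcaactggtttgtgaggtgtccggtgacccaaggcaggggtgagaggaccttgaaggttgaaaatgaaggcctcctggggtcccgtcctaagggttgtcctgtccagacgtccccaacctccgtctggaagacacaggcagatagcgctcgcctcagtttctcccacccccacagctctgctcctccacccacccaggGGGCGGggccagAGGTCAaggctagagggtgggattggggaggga
Foxd3: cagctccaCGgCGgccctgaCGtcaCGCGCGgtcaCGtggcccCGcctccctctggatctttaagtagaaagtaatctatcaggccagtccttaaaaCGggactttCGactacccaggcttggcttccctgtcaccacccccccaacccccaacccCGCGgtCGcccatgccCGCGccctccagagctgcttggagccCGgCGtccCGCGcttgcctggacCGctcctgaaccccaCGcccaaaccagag
Utf1: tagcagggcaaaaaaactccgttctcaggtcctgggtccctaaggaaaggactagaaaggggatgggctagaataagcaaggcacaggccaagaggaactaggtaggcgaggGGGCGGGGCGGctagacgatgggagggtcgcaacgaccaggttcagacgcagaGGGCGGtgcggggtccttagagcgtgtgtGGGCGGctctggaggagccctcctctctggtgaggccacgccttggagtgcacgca
Pou5f1 held 1 GC box and 1 AGGTCA close to its start, Utf1 held 4 GC boxes, overlapping matches counted, and Foxd3 held neither motif. GGGCGG occurs on either strand in 32.74% of the 32851 promoter windows of this length, and AGGTCA in 14.02%. Foxd3 had 21 CG dinucleotides, more than 83.7% of all windows, Utf1 had 14 and Pou5f1 had 8, beside a median of 6. The octamer ATGCAAAT, present in 1.6% of windows, had no match in any of the 5 genes. The SOX letters CATTGT, present in 10.69%, had a match in Lin28a. It also had a match in a second Pou5f1 entry, which starts inside that gene.

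The libraries held 8309171 to 14245900 reads, and values are log2 CPM, a log scale of reads normalised for the size of each library. Pluripotency markers were present in every group (summed level of 8 markers 2636 to 4198 CPM over all 24 libraries). Pou5f1 and Sox2 are themselves among these 8 markers. X-linked output, the median of X-linked genes less the autosomal median (log2), was above 0 in the other XX libraries, but LV21 at P7 had -0.29, beside 0.33 and 0.44 in LV20 and LV22 and -0.75 to -0.60 in the XY lines. At P13 LV22 had -0.32, beside -0.66 and -0.76 in the other lines named XO. Results that rest on these 2 libraries are therefore given with and without them. Dusp9 itself, the X-linked ERK phosphatase targeted in the clones, was at 6.93 at 0 h and 7.84 at 24 h in F121. It went from 5.96 to 7.71 in clone 1 and from 7.43 to 6.58 in clone 2, so the library labelled clone 2 at 0 h did not show a lower level than F121. Comparisons below therefore speak of libraries labelled Dusp9+/-. Over 14242 genes, deviations from the mean of the clones at 0 h and at 24 h correlated at -0.369 within a clone number. Steps from 0 h to 24 h in a clone follow the labelled number. Whether that number names the same clone at both times was not tested.

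Over the 24 libraries the 8 genes varied by very different amounts. Sall4 was the steadiest, from 8.43 to 9.21 log2 CPM, a range of 0.78. Pou5f1 ran from 8.57 to 9.54 and Sox2 from 7.70 to 9.11. Foxd3 stood at the other end, from 0.68 to 4.88, which is 12 to 322 reads and a 20.7-fold range in CPM. Dppa2 spanned 2.22 log2 units, Utf1 1.92, Lin28a 1.82 and Dppa4 1.28. Pou5f1 was lowest in LV8 at P7 and highest in clone 2 at 24 h, whereas Sox2 was lowest in F121 at 24 h and highest in LV20 at P7. By group mean, Pou5f1 was lowest in XY iPSCs at P7 (8.66 ± 0.08, SD, n = 3). The next was XX iPSCs at P7 (8.99 ± 0.13, n = 3), and these 2 groups did not overlap. From XY iPSCs at P13 (9.10 ± 0.04, n = 3) up to the clones at 24 h (9.50 ± 0.05, n = 2), each pair of neighbours in the order overlapped or included a group of 1 library. Levels are compared across libraries within a gene only, since no transcript lengths were used.

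**Figure D1:**
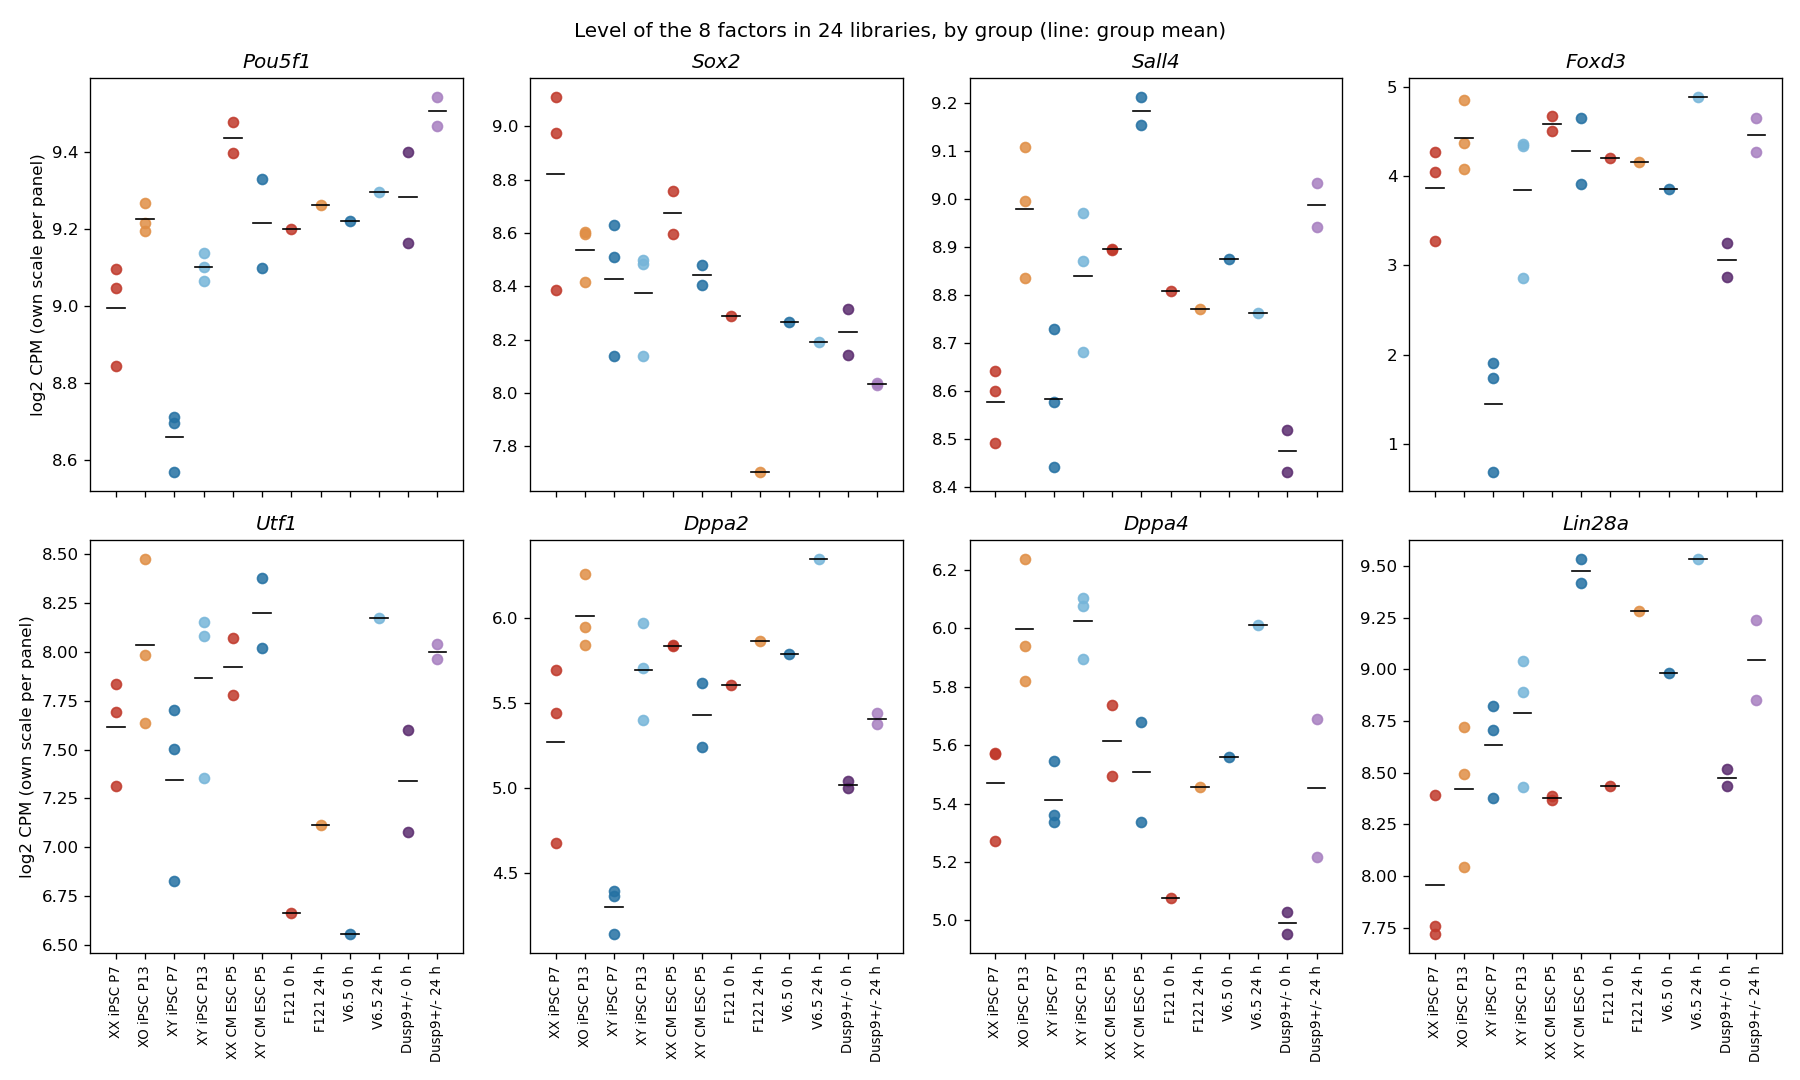
Level of each of the 8 factors (y axis, log2 CPM, own scale per panel) in the 12 groups (x axis). Each point is 1 library and each bar a group mean. Foxd3 and Dppa2 sit lowest in XY iPSCs at P7, and Pou5f1 is at most 8.71 there and at least 8.84 in all other libraries.

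At P7, Foxd3, Dppa2 and Pou5f1 were higher in XX than in XY iPSCs. These were 3 of the 8 factors, none was called lower, and 4.78% of the 13978 genes tested were called (3.05% higher), at a limma adjusted p under 0.05. In bulk RNA, fewer cells expressing a gene and less RNA per cell cannot be told apart. Foxd3 was at 1.74, 0.68 and 1.90 log2 CPM in the XY lines LV4, LV8 and LV16, and at 4.05, 3.27 and 4.27 in the XX lines LV20, LV21 and LV22. All 3 XX lines lay above all 3 XY lines. The difference was 2.42 ± 0.42 (log2, SE), or 5.35-fold, with a limma adjusted p of 0.00907. Dppa2 was at 4.39, 4.14 and 4.36 in the XY lines and at 5.44, 4.68 and 5.70 in the XX lines. The groups did not overlap, LV21 was the lowest XX line, and the difference was 0.98 ± 0.22 (limma adjusted p = 0.0271). Pou5f1 was at 8.69, 8.57 and 8.71 in the XY lines and at 9.05, 8.84 and 9.09 in the XX lines. Its groups did not overlap either, with a smaller difference of 0.34 ± 0.08, or 1.26-fold (limma adjusted p = 0.0271).

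Lin28a and Sox2 did not pass the test at P7. Lin28a was at 8.82, 8.38 and 8.71 in the XY lines and at 7.72, 8.39 and 7.76 in XX lines LV20, LV21 and LV22. LV20 and LV22 were far below every XY line, while LV21 lay among them, and the difference was -0.68 ± 0.21 (limma adjusted p = 0.0736). Sox2 was at 8.14, 8.51 and 8.63 in the XY lines and at 9.11, 8.39 and 8.97 in the XX lines, again with LV21 inside the XY range. Its difference was 0.40 ± 0.17 (limma adjusted p = 0.19). Without LV21, and equally without both libraries that stand apart, 5 factors were called. Lin28a then stood at -0.90 ± 0.19 (limma adjusted p = 0.00711 without LV21) and Sox2 at 0.61 ± 0.14 (0.00957). Utf1 was at 6.83, 7.51 and 7.70 in the XY lines and at 7.83, 7.69 and 7.32 in the XX lines, which overlap (0.27 ± 0.25). Sall4 (-0.00 ± 0.10) and Dppa4 (0.06 ± 0.13) differed by less than their spread, and none of these 3 was called with or without LV21.

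The calls at P7 rested on single libraries. No factor was called without LV22 or without LV8, and 1 (Foxd3) was called without LV4, LV16 or LV20. Foxd3 without LV22 stood at 2.22 ± 0.47 (limma adjusted p = 0.0616), and without LV8 at 2.04 ± 0.43 (0.0569). A voom fit on recovered reads called Pou5f1 alone, with Foxd3 at 2.47 ± 0.67 (limma-voom adjusted p = 0.0557). Of 12 genes known as targets of Pou5f1 and Sox2, 1 was higher and none lower (list median 0.205, all genes 0.004), beside 4.78% of all genes called. That gene was Jarid2 (0.55 ± 0.15, limma adjusted p = 0.0497), a subunit of Polycomb repressive complex 2. Pluripotency markers, a list that includes Pou5f1 and Sox2, summed to 2636 CPM in LV21, the lowest of all 24 libraries. They summed to 4082 and 3962 CPM in LV20 and LV22 and to 2733 to 3113 in the XY lines. Neuroectoderm markers summed to 255 CPM in LV21 against 61.6 and 63.6 in LV20 and LV22 and 100 to 156 in the XY lines. Mesendoderm markers summed to 107 CPM in LV21 and 16.4 to 50.8 in the other 5 lines. Trophoblast markers summed to 368 CPM in LV21 and 253 to 338 in those 5 lines. The part of these marker lists in the levels of LV21 was not tested.

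At P13, where the female lines are named XO, no factor differed from the XY lines in the limma test. Over all genes 4 were called (0.0286%), 376 had an unadjusted p under 0.05, and voom called 4 genes and 0 factors. Foxd3 was at 4.37, 4.08 and 4.85 log2 CPM in LV20, LV21 and LV22 and at 4.36, 4.33 and 2.86 in LV4, LV8 and LV16. The groups overlapped, with a difference of 0.58 and a 95% interval of -0.32 to 1.49. Dppa2 was at 5.95, 5.84 and 6.26 in the XO lines and at 5.71, 5.97 and 5.40 in the XY lines, a difference of 0.32 (95% interval -0.15 to 0.80). Pou5f1 was at 9.27, 9.21 and 9.19 against 9.06, 9.14 and 9.10. These 2 groups did not overlap, yet the difference of 0.12 ± 0.08 was not called (limma adjusted p = 0.999). Lin28a was at 8.72, 8.04 and 8.49 against 8.89, 8.43 and 9.04 (difference -0.37 ± 0.21, limma adjusted p = 0.999). Sox2 (0.16 ± 0.17), Sall4 (0.14 ± 0.10), Utf1 (0.17 ± 0.25) and Dppa4 (-0.03 ± 0.13) were not called either.

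In the male lines, 4 factors rose from P7 to P13 and none fell: Foxd3, Dppa2, Dppa4 and Pou5f1. Of all genes tested 13.0% were called in this comparison, and 7.23% of all genes tested were called higher at P13. The P7 values of the XY lines given above serve both this comparison and the XX comparison, so these comparisons are not independent. Foxd3 went from 1.74 to 4.36 in LV4, from 0.68 to 4.33 in LV8 and from 1.90 to 2.86 in LV16. Every P13 library lay above every P7 library, with the smallest step in LV16, and the change was 2.41 ± 0.42, or 5.30-fold (limma adjusted p = 0.00433). Dppa2 went from 4.39 to 5.71, from 4.14 to 5.97 and from 4.36 to 5.40 in the same lines, a change of 1.40 ± 0.22 (limma adjusted p = 0.00278). Its neighbour Dppa4 went from 5.36 to 5.90, from 5.34 to 6.10 and from 5.54 to 6.08, a change of 0.61 ± 0.13 (limma adjusted p = 0.0104). Pou5f1 went from 8.69 to 9.06, from 8.57 to 9.14 and from 8.71 to 9.10, a change of 0.44 ± 0.08 (limma adjusted p = 0.00408). For each of these 3 genes too, the passages did not overlap.

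Foxd3, Dppa2 and Pou5f1 kept their male passage call in all 15 alternatives, while Dppa4 lost it without LV8 at P7 (0.57 ± 0.15, limma adjusted p = 0.0556). Sall4 went from 8.44 to 8.97 in LV4, from 8.58 to 8.87 in LV8 and from 8.73 to 8.68 in LV16 (0.26 ± 0.10, limma adjusted p = 0.0961). Utf1 was at 8.08, 8.15 and 7.36 at P13 in these lines. Utf1 (0.52 ± 0.25), Lin28a (0.15 ± 0.21) and Sox2 (-0.05 ± 0.17) were not called. LV16 was the only male line with lower Sall4 and Utf1 at P13 than at P7, by 0.05 and 0.35. Sox2 was lower at P13 by 0.49 in LV16 and by 0.01 in LV8, and higher by 0.35 in LV4. Without LV16 at P13, Sall4 passed the test as well (0.34 ± 0.10, limma adjusted p = 0.0391).

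**Figure D2:**
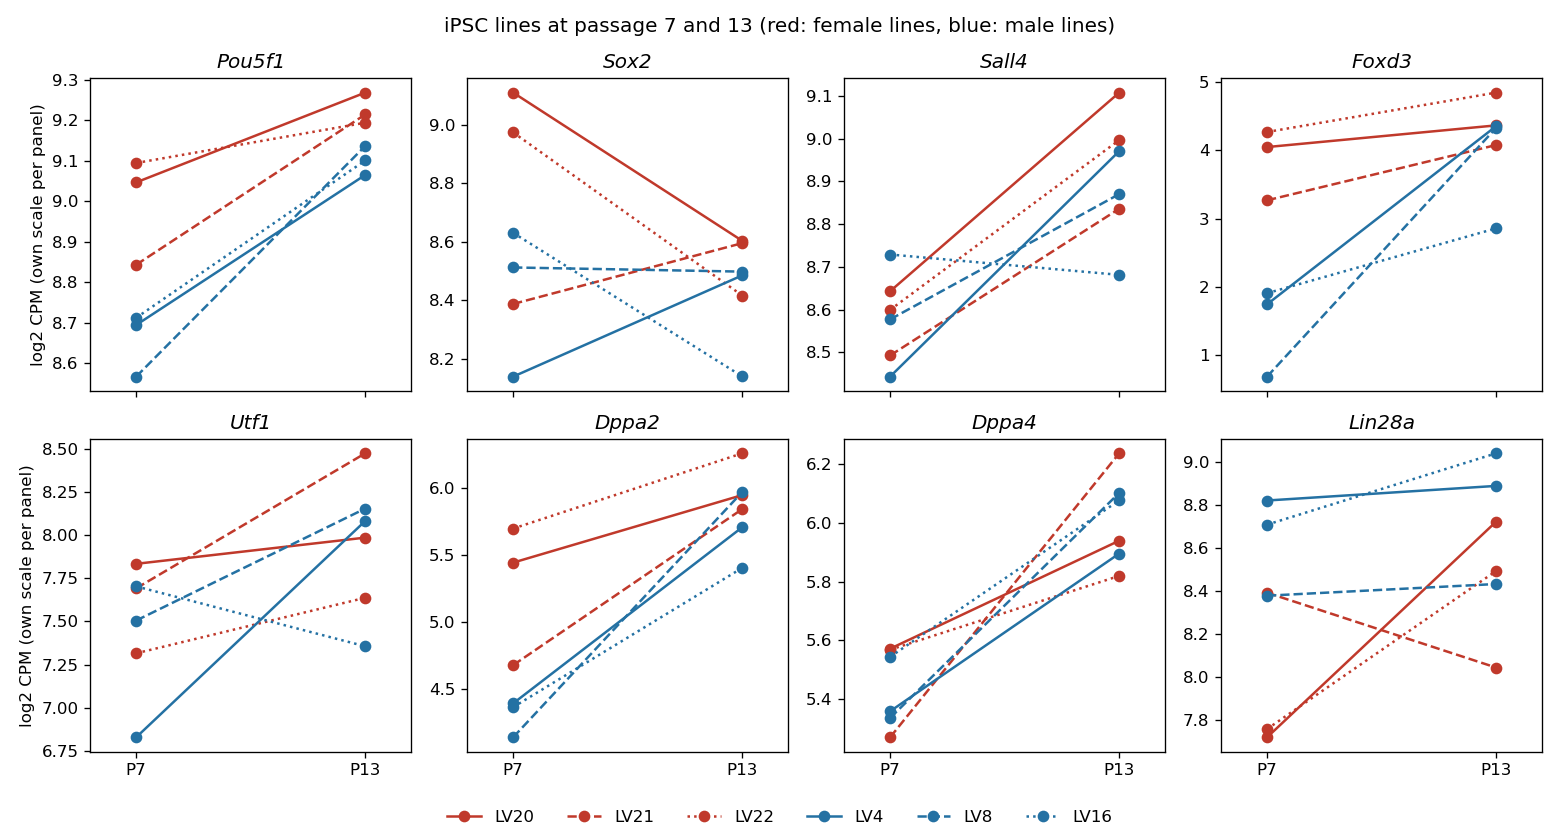
Level of each factor (y axis, log2 CPM, own scale per panel) at P7 and P13 (x axis) in the 3 female (red) and 3 male (blue) iPSC lines, with the 2 libraries of a line joined. Dppa2, Dppa4, Pou5f1 and Foxd3 are higher at P13 in all 6 lines, and the largest step is that of Foxd3 in LV8, from 0.68 to 4.33.

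In the female lines, Sall4 and Dppa4 rose from P7 to P13, 2 of the 8 factors, beside 9.00% of all genes called and 4.32% called higher. Sall4 went from 8.64 to 9.11 in LV20, from 8.49 to 8.84 in LV21 and from 8.60 to 9.00 in LV22. The passages did not overlap, and the change was 0.40 ± 0.10 (limma adjusted p = 0.0247). Dppa4 went from 5.57 to 5.94, from 5.27 to 6.24 and from 5.57 to 5.82 in the same lines. The change was 0.53 ± 0.13 (limma adjusted p = 0.027), largest in LV21. Dppa2 went from 5.44 to 5.95, from 4.68 to 5.84 and from 5.70 to 6.26, which missed the threshold (0.75 ± 0.22, limma adjusted p = 0.0511). With line as a replicate block it passed (adjusted p = 0.0264), so that 3 factors were called.

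Utf1 was at 7.99, 8.47 and 7.64 at P13 in LV20, LV21 and LV22, above P7 in each line, and was not called (0.42 ± 0.25, limma adjusted p = 0.318). Pou5f1 (0.23 ± 0.08, limma adjusted p = 0.0745) and Foxd3 (0.57 ± 0.42, limma adjusted p = 0.423) were higher at P13 in each female line but were not called. Sox2 was lower at P13 in LV20 and LV22, by 0.51 and 0.56, and higher in LV21 by 0.21, and was not called (-0.29 ± 0.17, limma adjusted p = 0.303). Lin28a was higher in LV20 and LV22, by 1.01 and 0.74, and lower in LV21 by 0.35 (0.46 ± 0.21, limma adjusted p = 0.167). Without LV21 at P7 both were called, Sox2 at -0.50 ± 0.14 (limma adjusted p = 0.0243) and Lin28a at 0.68 ± 0.19 (0.0266). The count was then 4. It was 0 without LV20 at either passage and 1 without LV22 at either passage or without LV21 at P13. Without both libraries that stand apart only Dppa4 was called. Sall4 lost its call without LV20 at either passage, LV22 at P7 or LV22 at P13. Dppa4 lost its call without LV20 at either passage, LV22 at P7 or LV21 at P13 (highest adjusted p over all alternatives 0.101 and 0.0851).

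The female and male passage changes were not shown to differ for any factor. The interaction term, female minus male, called 0 genes of 13978 (0%) in limma and 0 in voom, with 1242 genes at an unadjusted p under 0.05. Foxd3 had the largest value, -1.84 ± 0.60 (limma adjusted p = 0.48), and Dppa2 stood at -0.65 ± 0.32 (limma adjusted p = 0.571). Pou5f1 stood at -0.21 ± 0.11, Sox2 at -0.23 ± 0.24, Dppa4 at -0.08 ± 0.19 and Utf1 at -0.10 ± 0.36, with Sall4 at 0.14 ± 0.14 and Lin28a at 0.31 ± 0.29. Without both libraries that stand apart, Dppa2 reached -1.07 ± 0.24 (limma adjusted p = 0.0309) and was the only factor called. This alternative was chosen after the data were seen. The same interaction, with its sign turned, is the difference between the XX against XY contrast at P7 and the XO against XY contrast at P13.

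Fibroblast and feeder markers were at higher levels at P13. Their summed level over 10 genes was 251 to 367 CPM in the 6 iPSC libraries at P7 and 492 to 1376 CPM in the 6 at P13, and none of the 10 was at 0 reads in any iPSC group. Primitive endoderm markers summed to 10.4 to 21.4 CPM at P7 and 15.5 to 33.1 CPM at P13, and trophoblast markers to 253 to 368 and 137 to 230 CPM. Mesendoderm markers summed to 16.4 to 107 CPM at P7 and 6.78 to 26.2 CPM at P13, lower at P13 in each line. Neuroectoderm markers summed to 61.6 to 255 and 56.3 to 111 CPM, higher at P13 in LV20 and LV22 and lower in the other lines. Of the primitive endoderm list, Pdgfra had group means of 10.1 and 20.2 CPM in the female lines and 6.44 and 20.9 CPM in the male lines. Gata4, Gata6, Sox7 and Foxa2 had lower means at P13 in the female lines. In the male lines their means were at most 2.19 CPM at either passage. The part of these marker lists in the passage changes was not tested. The labels used here do not say how the iPSCs were reprogrammed, and reads from any reprogramming copy of Pou5f1 or Sox2 would be counted with the cells' own gene. Of 21 protein partners of the factors, 3 rose in the female lines and 4 in the male lines, none fell, and the other 18 and 17 were not called (list medians 0.069 and 0.101, all genes -0.002 and -0.003). Over all genes 4.32% and 7.23% were called higher. Trim28, a corepressor of retroelements, rose by 0.47 ± 0.09 in female and 0.44 ± 0.09 in male lines (limma adjusted p = 0.00854 and 0.00615). The chromatin remodelling subunit Arid1a rose by 0.32 ± 0.09 and 0.35 ± 0.09 (limma adjusted p = 0.0355 and 0.0189). Mbd3, of the NuRD complex, rose in the female lines (0.54 ± 0.13) and the Mediator subunit Med1 in the male lines (0.34 ± 0.09).

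Targets of Pou5f1 and Sox2 moved both ways in the female lines, where 2 of 12 rose and 1 fell, and 4 of 12 rose in the male lines with none falling. The list medians were 0.045 and 0.091 (all genes -0.002 and -0.003). The passage counts of this paragraph stand beside 9.00% of all genes called in the female lines and 13.0% in the male lines. Zscan10, a zinc-finger factor of ESCs, rose by 0.73 ± 0.12 in female and 0.64 ± 0.12 in male lines (limma adjusted p = 0.00637 and 0.0052). Spp1, which encodes the secreted protein osteopontin, rose by 1.17 ± 0.22 and 1.19 ± 0.22 (limma adjusted p = 0.00963 and 0.00499). The homeobox factor Nanog fell in the female lines (-0.94 ± 0.23, limma adjusted p = 0.0252), and Jarid2 rose in the male lines (0.79 ± 0.15, limma adjusted p = 0.00586). In the Lin28a and let-7 pathway, 2 of 15 genes rose and 1 fell in the female lines, and 3 rose in the male lines (list medians 0.128 and 0.002). Mycn, a MYC-family factor, rose in both (0.52 ± 0.12 and 0.57 ± 0.12), Drosha, the nuclear microRNA-processing nuclease, rose in the female lines (0.37 ± 0.07), and Zcchc11, a uridylyltransferase that acts with Lin28a on pre-let-7, fell there (-0.67 ± 0.12). Of 12 paralogs of the factors, only Sall3, a relative of Sall4, was called in XX iPSCs at P7 (2.19 ± 0.44, higher), beside 4.78% of all genes. Sall3 was also the only paralog called with passage in the male lines (1.78 ± 0.44, higher), and none was called with passage in the female lines. The let-7 target Hmga2 (1.51 ± 0.38) and the RNA-binding protein Igf2bp1 (0.34 ± 0.09) rose in the male lines.

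In undifferentiated ESCs, Lin28a was lower in XX than in XY lines and was the only factor called. Of the 14193 genes tested 7.19% were called, and 2.32% of those tested were called lower. Lin28a was at 8.37 and 8.39 log2 CPM in CM1 and CM2, against 9.42 and 9.53 in CM3 and CM7. In the other experiment at 0 h it was at 8.44 in F121 (XX) and 8.98 in V6.5 (XY). Every XX line lay below every XY line. The difference was -0.91 ± 0.11, a 1.88-fold lower level in XX (limma adjusted p = 0.00319), and the call held in all 13 alternatives. Its paralog Lin28b was also lower in XX ESCs (-0.66 ± 0.11, limma adjusted p = 0.0092), and was the only 1 of 15 genes of the Lin28a and let-7 list to be called.

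Sall4 was at 8.90 and 8.89 in CM1 and CM2, 9.21 and 9.15 in CM3 and CM7, 8.81 in F121 and 8.88 in V6.5. It was lower in XX within each experiment, but the difference of -0.21 ± 0.07 was not called (limma adjusted p = 0.118). In the CM lines alone it was (-0.29 ± 0.07, limma adjusted p = 0.0201), as it was without F121 (0.0238) or without V6.5 (0.0216). Pou5f1 was at 9.40 and 9.48 in CM1 and CM2 and at 9.33 and 9.10 in CM3 and CM7, with 9.20 in F121 and 9.22 in V6.5. The difference was 0.14 ± 0.09 with a 95% interval of -0.06 to 0.34 (limma adjusted p = 0.37). Sox2 was at 8.76 and 8.60 against 8.48 and 8.40 in the CM lines, and at 8.29 in F121 and 8.27 in V6.5 (0.16 ± 0.08, limma adjusted p = 0.272).

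The 2 other factors called in XX iPSCs were not called in XX ESCs. Foxd3 was at 4.67 and 4.50 in CM1 and CM2, 3.91 and 4.65 in CM3 and CM7, 4.20 in F121 and 3.86 in V6.5. The groups overlapped, with a difference of 0.32 ± 0.21 and a 95% interval of -0.16 to 0.79. Dppa2 was at 5.84 in both CM1 and CM2 and at 5.62 and 5.24 in CM3 and CM7, with 5.61 in F121 and 5.79 in V6.5 (0.21, 95% interval -0.15 to 0.58). Utf1, at 8.07 and 7.78 against 8.38 and 8.02 in the CM lines (-0.15 ± 0.13), and Dppa4, at 5.74 and 5.49 against 5.68 and 5.34 (-0.09 ± 0.17), were not called. Whether the iPSC and ESC differences themselves differ was not tested. F121 and V6.5 differ in strain as well as in sex, whereas the 4 CM lines are of 1 cross. Of the 12 targets, 4 were higher in XX ESCs and none lower (list median 0.205, all genes -0.015), beside 7.19% of all genes called. Nanog (1.00 ± 0.08), Fbxo15 (0.89 ± 0.10) and Dppa5a (0.60 ± 0.09) had the smallest adjusted p (limma, 0.000695, 0.00231 and 0.00567). Of the 21 partners 3 were lower, the remodellers Chd4 (-0.35 ± 0.06) and Arid1a (-0.28 ± 0.07) and the BTB protein Nacc1 (-0.49 ± 0.10), and 1 was higher. Among 12 paralogs tested, 3 were lower, among them Sox11 (-1.74 ± 0.16, limma adjusted p = 0.00111), and Sall3 was higher (1.22 ± 0.23, limma adjusted p = 0.0186). CM7 had the highest trophoblast and mesendoderm marker sums of the 4 CM lines (600 and 206 CPM, others up to 247 and 42.7). Its primitive endoderm and neuroectoderm sums were also the highest of these lines (51.5 and 141 CPM, others up to 26.8 and 68.7). The part of these markers in the differences was not tested.

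After 24 h without LIF, 5 factors rose and none was called lower: Lin28a, Dppa2, Utf1, Dppa4 and Foxd3. Of 14335 genes tested 32.7% were called, and 16.8% of those tested were called higher. Lin28a went from 8.44 to 9.28 in F121, from 8.98 to 9.53 in V6.5, from 8.43 to 9.24 in clone 1 and from 8.52 to 8.85 in clone 2. It was higher at 24 h in each line, by 0.63 ± 0.10, or 1.55-fold (limma adjusted p = 0.00316). Utf1 went from 6.67 to 7.12 in F121, from 6.55 to 8.17 in V6.5, from 7.08 to 8.04 in clone 1 and from 7.60 to 7.96 in clone 2. The increase was 0.85 ± 0.20 (limma adjusted p = 0.0144), and V6.5, with the lowest start, had the largest step.

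The neighbours Dppa2 and Dppa4 were both higher at 24 h in all 4 lines. Dppa2 went from 5.61 to 5.87 in F121, from 5.79 to 6.35 in V6.5, from 5.00 to 5.44 in clone 1 and from 5.04 to 5.37 in clone 2 (0.40 ± 0.08, limma adjusted p = 0.00804). Dppa4 went from 5.08 to 5.46, from 5.56 to 6.01, from 5.03 to 5.22 and from 4.95 to 5.69 in the same order (0.44 ± 0.11, limma adjusted p = 0.0205). Foxd3 went from 4.20 to 4.15 in F121, from 3.86 to 4.88 in V6.5, from 2.87 to 4.64 in clone 1 and from 3.25 to 4.27 in clone 2. F121 thus had no increase, while the other 3 lines had steps of 1.02 to 1.77, and the change over all lines was 0.94 ± 0.25 (limma adjusted p = 0.0239).

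**Figure D3:**
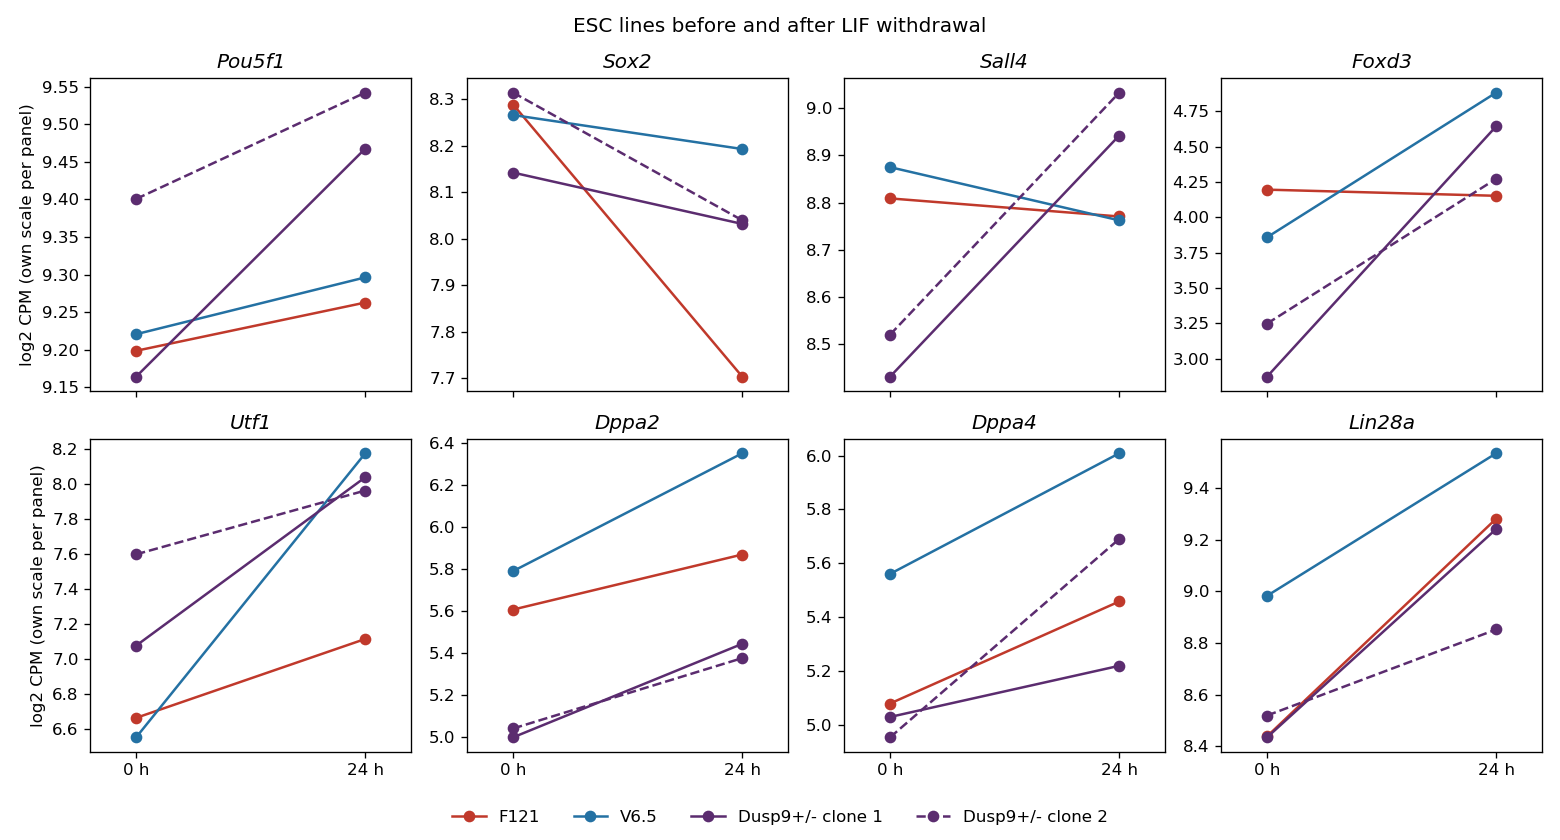
Level of each factor (y axis, log2 CPM, own scale per panel) at 0 h and 24 h without LIF (x axis) in F121, V6.5 and the 2 clones labelled Dusp9+/-. The 2 libraries of a line are joined, those of the clones by their labelled number. Lin28a, Utf1, Dppa2 and Dppa4 are higher at 24 h in all 4 lines, and Sox2 is lower in all 4.

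The core pair was not called. Pou5f1 went from 9.20 to 9.26 in F121, from 9.22 to 9.30 in V6.5, from 9.16 to 9.47 in clone 1 and from 9.40 to 9.54 in clone 2 (0.15 ± 0.07, limma adjusted p = 0.155). Sox2 went from 8.29 to 7.70 in F121, from 8.27 to 8.19 in V6.5, from 8.14 to 8.03 in clone 1 and from 8.31 to 8.04 in clone 2. It was lower in 4 of 4 lines, most in F121, and missed the threshold (-0.26 ± 0.09, limma adjusted p = 0.0618). Without clone 1 at 0 h it passed (-0.31 ± 0.09, limma adjusted p = 0.0475). Sall4 went from 8.81 to 8.77 in F121 and from 8.88 to 8.76 in V6.5, but from 8.43 to 8.94 in clone 1 and from 8.52 to 9.03 in clone 2 (0.22 ± 0.12, limma adjusted p = 0.195).

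The number of factors called fell to 3 without clone 2 at 0 h or without either V6.5 library, because Dppa4 and Foxd3 then missed the threshold (adjusted p 0.0557 to 0.0673). Dppa4 also missed it without either F121 library (0.0527 and 0.0536), and Foxd3 without clone 1 at 0 h or 24 h (0.0503 and 0.0622) or clone 2 at 24 h (0.0642). The 10 fibroblast and feeder markers summed to 751 CPM at 0 h and 215 CPM at 24 h in F121, and to 798 and 191 CPM in V6.5. They stood at 68.4 and 169 CPM in the clones at 0 h and at 154 and 80.1 CPM at 24 h. Their part in the withdrawal changes was not tested.

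Around the factors, 6 of 12 targets of Pou5f1 and Sox2 fell and 2 rose on withdrawal (list median -0.636, all genes 0.023). The list counts of this paragraph stand beside 32.7% of all genes called, 16.8% higher. Nanog fell by 1.64 on the log2 scale (limma adjusted p = 0.000681) and Spp1 fell by 1.74 (0.00123), while Zscan10 rose by 0.67 ± 0.08 (0.00139). Of 21 partners 10 rose and 2 fell, with the zinc-finger factor Zfp281 at 0.62 ± 0.06 and Arid1a at 0.60 ± 0.08. Paralogs of the factors rose in 8 of 12 cases and fell in 1 (list median 0.715). Sall2 rose by 2.49 ± 0.26, Pou3f1 (Oct6, a POU factor of the primed state) by 2.35 ± 0.40 and the SOXB1 gene Sox3, which is X-linked, by 1.65 ± 0.21 (limma adjusted p = 0.000856, 0.00463 and 0.00157). In the Lin28a and let-7 list 7 of 15 rose and 3 fell, with Igf2bp1 (0.39 ± 0.07), Mycn (0.66 ± 0.13) and Trim71 (0.37 ± 0.08), a target of let-7, among the risers.

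With LIF, Dppa2 and Foxd3 were lower in the libraries labelled Dusp9+/- than in F121, 2 of the 8 factors. Of all genes tested 8.91% were called, and 4.10% of those tested were called lower. Dppa2 was at 5.00 and 5.04 in clones 1 and 2 against 5.61 in F121, and Foxd3 at 2.87 and 3.25 against 4.20. The differences were -0.59 ± 0.12 for Dppa2 and -1.14 ± 0.25 for Foxd3 (limma adjusted p = 0.0411 and 0.0464). F121 was 1 library, and its spread is assumed to equal that of the clones. Foxd3 lost its call with log2(CPM + 5) (-0.81 ± 0.19, limma adjusted p = 0.0555) and at a minimum mean of 4 CPM (-1.14 ± 0.25, 0.051). It also lost its call in a voom fit (-1.14 ± 0.26, limma-voom adjusted p = 0.051), while Dppa2 kept its call in each of these. The difference of Foxd3 was -0.95 without clone 1, where 1 library stands against 1. Neither gene was called with no filter on low values (adjusted p = 0.0592 for Dppa2 and 0.0764 for Foxd3).

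Of the other factors at 0 h, Utf1 was at 7.08 and 7.60 in the clones and 6.67 in F121 (0.67 ± 0.21, limma adjusted p = 0.0948), and the difference was 0.93 without clone 1, where 1 library stands against 1 and the spread comes from the clones at 24 h alone. Sall4 was at 8.43 and 8.52 against 8.81 (-0.33 ± 0.10, limma adjusted p = 0.0816). Pou5f1 was at 9.16 and 9.40 against 9.20, with F121 between the clones (0.08 ± 0.12). Sox2 (-0.06 ± 0.11), Dppa4 (-0.09 ± 0.21) and Lin28a (0.04 ± 0.16) were not called. Gene levels also moved by chromosome in this contrast. The median log2 difference was 0.251 over 680 genes of chromosome 17, which holds Pou5f1, beside -0.005 over all genes. It was -0.108 over 414 genes of chromosome 16, which holds Dppa2 and Dppa4, and -0.109 over 649 genes of chromosome 3, which holds Sox2. Chromosome 4, which holds Foxd3 and Lin28a, had -0.055 over 903 genes. The X chromosome, which holds none of the factors, had 0.228 over 555 genes. X-linked output at 0 h was 0.10 in F121 and 0.34 and 0.15 in clones 1 and 2, so X-linked levels were not equal on the 2 sides. The part of these shifts in the values of these genes was not tested. Feeder markers were at 68.4 and 169 CPM in the clones and 751 CPM in F121. Trophoblast markers (6 genes) differed the other way, at 254 and 457 CPM in the clones and 75.5 CPM in F121. The means of the clones were 186 CPM for Krt18, 81.3 for Tfap2c and 75.3 for Krt8, beside 14.5, 52.4 and 7.43 in F121. Those of Hand1, Elf5 and Cdx2 were 11.0, 1.52 and 0.94 CPM, beside 0.75, 0.15 and 0.30 in F121. The part of either list in the differences was not tested.

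Of the 12 targets, 4 were lower in the libraries labelled Dusp9+/- at 0 h and none was higher. Fbxo15 (-1.08 ± 0.11), Nanog (-0.81 ± 0.12) and Zfp42 (Rex1, -0.45 ± 0.10) had the smallest adjusted p (limma, 0.015, 0.0245 and 0.0432). Among partners, Trim28 (-0.64 ± 0.09) and Zfp281 (-0.48 ± 0.11) were lower, 2 of 21. Counts in these lists stand beside 8.91% of all genes called, so that of the partners is near the background. Among paralogs 3 of 12 were higher, namely Sox11 (1.52 ± 0.17), Pou3f1 (1.75 ± 0.30) and Sall2 (1.08 ± 0.21), and 1 was lower. Of 15 genes of the Lin28a and let-7 list, Drosha (-0.52 ± 0.10) and Trim71 (-0.50 ± 0.11) were lower.

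After 24 h without LIF, no factor differed between the libraries labelled Dusp9+/- and F121 in the limma test. Over all genes 2.55% were called, 3590 had an unadjusted p under 0.05, and voom called 16 genes and 0 factors. Foxd3, at 4.64 and 4.27 in the clones, lay above F121 (4.15), the reverse of 0 h (0.31 ± 0.25, limma adjusted p = 0.477). Dppa2 was at 5.44 and 5.37 against 5.87 (-0.46 ± 0.12, limma adjusted p = 0.0939). Sox2 was at 8.03 and 8.04 against 7.70 (0.33 ± 0.11, limma adjusted p = 0.134), and Utf1 at 8.04 and 7.96 against 7.12 (0.88 ± 0.21, limma adjusted p = 0.08). Pou5f1 (0.24 ± 0.12), Sall4 (0.22 ± 0.10), Lin28a (-0.23 ± 0.16) and Dppa4 (-0.00 ± 0.21) were not called. Median differences by chromosome at 24 h were 0.227 on chromosome 17, -0.121 on 16 and -0.105 on 3, beside -0.02 over all genes. They were -0.058 on chromosome 4 and 0.2 on the X chromosome. The part of these shifts was not tested. Trophoblast markers summed to 418 and 433 CPM in the clones and 40.1 CPM in F121 at 24 h, and feeder markers to 154 and 80.1 against 215 CPM. The part of either list was not tested. The interaction of genotype and time called 0 genes (0%) in limma and 0 in voom, with 1766 at an unadjusted p under 0.05. Its largest values among the factors were 1.44 ± 0.35 for Foxd3 (limma adjusted p = 0.246) and 0.55 ± 0.14 for Sall4 (0.253). Sox2 stood at 0.39 ± 0.15, Utf1 at 0.21 ± 0.29, Pou5f1 at 0.16 ± 0.17, Dppa2 at 0.13 ± 0.17, Dppa4 at 0.08 ± 0.29 and Lin28a at -0.27 ± 0.23. Of the lists at 24 h, 1 of 12 paralogs was higher (Sox15, 1.96 ± 0.31, limma adjusted p = 0.0451) and 1 of 15 genes of the Lin28a and let-7 list was lower (Igf2bp3, -0.85 ± 0.14, limma adjusted p = 0.0454).

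**Figure D4:**
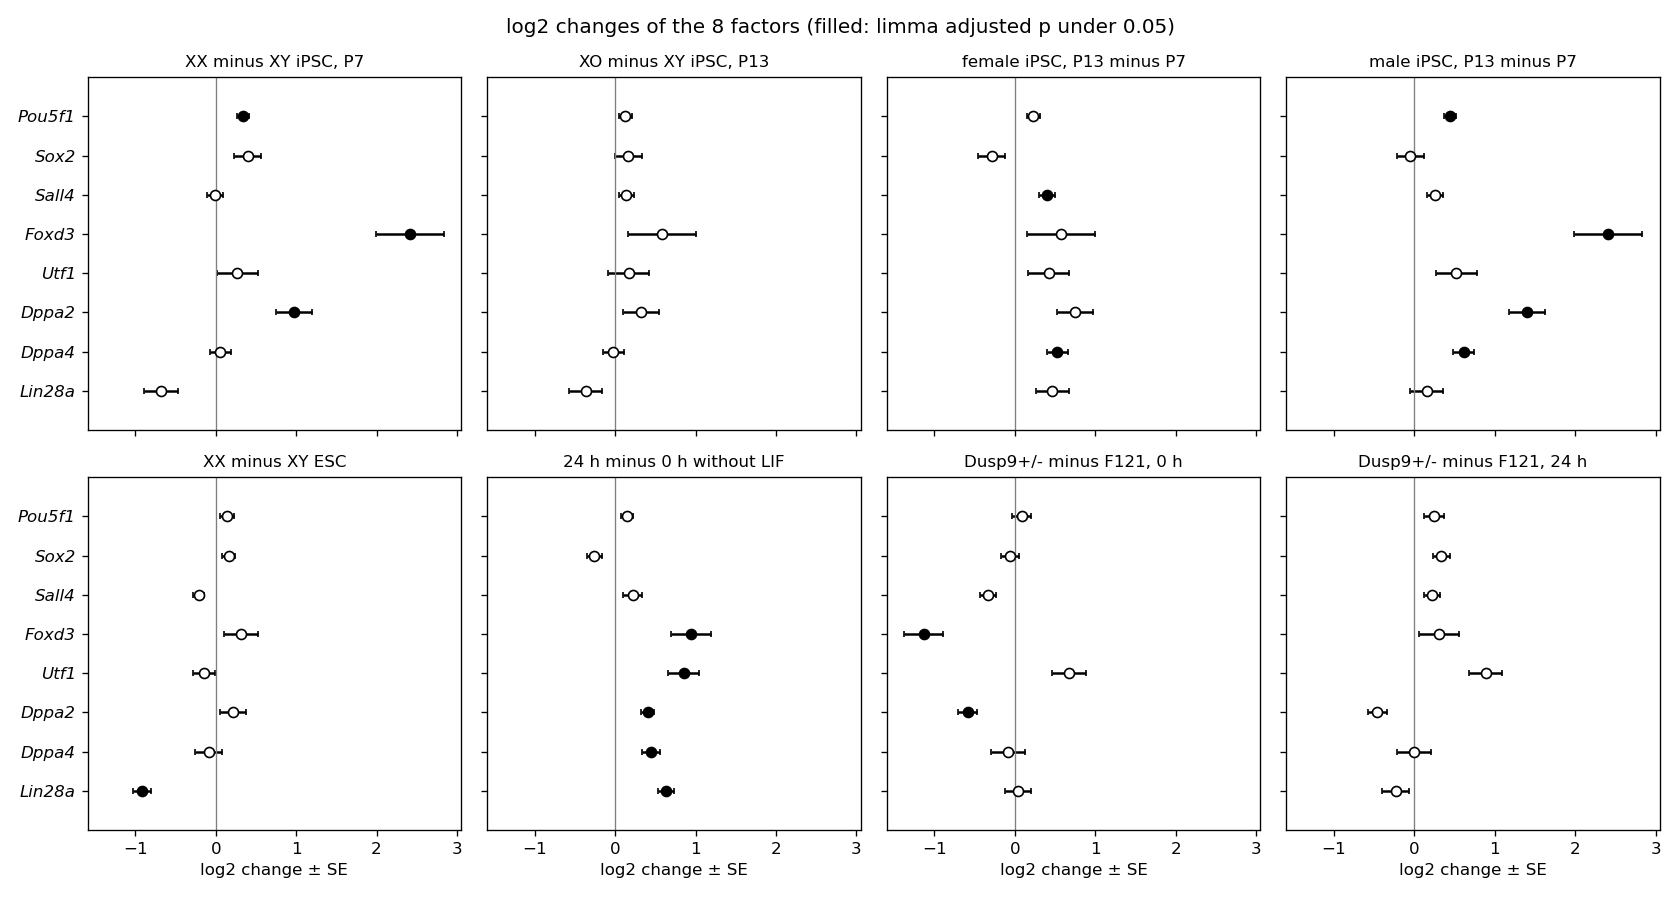
log2 change of each factor (x axis) in 8 comparisons (panels), with SE bars. Filled points have a limma adjusted p under 0.05. The panels of XX against XY iPSCs at P7 and of male iPSCs with passage share the XY libraries at P7, and Lin28a is the only factor filled in the ESC panel.

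Genes reported to depend on Dppa2 and Dppa4, with 2-cell-stage genes, were mostly not tested. Of 18 such genes 4 were in the table and 3 were tested (Syce1, Mael and Slc25a31, all germline genes). Syce1, of the synaptonemal complex, was higher in XX iPSCs at P7 (2.20 ± 0.35, limma adjusted p = 0.00666), as was Mael, of the piRNA pathway (1.77 ± 0.44, 0.0351). Dppa2 was also called higher in that comparison, where 4.78% of all genes tested were called. In the libraries labelled Dusp9+/- at 0 h, where Dppa2 was lower, Syce1 (-1.91 ± 0.32, limma adjusted p = 0.0288) and the germ-cell ADP/ATP carrier Slc25a31 (-2.17 ± 0.34, 0.0259) were lower. Of all genes tested there, 8.91% were called. No gene of this list was called with passage in either sex, in ESCs by sex or on withdrawal. Dppa2 was called higher with passage in the male lines (1.40 ± 0.22, limma adjusted p = 0.00278). It was also called higher on withdrawal (0.40 ± 0.08, limma adjusted p = 0.00804). Whether the genes of this list follow Dppa2 was not tested.

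The factors did not vary as 1 group. Correlations were taken over the 24 libraries after the mean of each experiment was subtracted. They describe these libraries, which share experiments, lines and depth. Of 28 pairs 22 were above 0, with a median r of 0.422. Dppa2 and Foxd3 were closest (r = 0.883), followed by Pou5f1 with Foxd3 (0.77), Pou5f1 with Dppa2 (0.758) and Dppa2 with Dppa4 (0.745). Pou5f1 and Sox2 had an r of only 0.179, and Sox2 and Lin28a had the lowest value, -0.701. Among 11420 genes averaging 4 CPM or more, the non-members most like Pou5f1 were Jarid2 (0.928), Spen (0.917) and Slc7a3 (0.865). Those most like Sox2 were Mybl2 (0.851), Tubb2a (0.775) and Tmem231 (0.771), and those most like Lin28a were Nudt19 (0.92), Spop (0.895) and the de novo DNA methyltransferase gene Dnmt3b (0.893). Foxd3 was most like Gpx1 (0.908), Setd1b (0.898) and Prmt6 (0.892). Dppa2 was most like Clmp (0.927), H2-M5 (0.924) and Zfp518b (0.909), and Dppa4 most like Fam208a (0.866), 2410003L11Rik (0.866) and Daxx (0.865). Utf1 was most like Ehmt2 (0.918), Sptbn4 (0.917) and Zfp219 (0.886), and Sall4 most like Ptpn1 (0.854), Tfap4 (0.843) and Pnp (0.842).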

How the data were processed

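RNA was sequenced in 32 of the 52 samples of the series, and the other 20, on chromatin accessibility, are not analysed here. Per the labels' protocols, stranded mRNA libraries were read single-end. STAR (version 2.5.3a), edgeR and featureCounts are listed in the submitters' processing notes. The authors deposited log2 CPM, a unit other than raw counts, for 16687 genes in 24 columns, with a floor of -2.452 log2 (0.1828 CPM). In these deposited values every column steps by 1 read, so reads were recovered (100.0% of values within 0.01 read of a whole number). The 8 technical repeats of the withdrawal experiment have no column of their own, and whether they were combined with the other libraries is not stated. P-values measure the spread between these libraries, since for the withdrawal experiment the labels do not say that cultures were separate.

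Genes averaging 1 CPM or more entered linear models of limma (version 3.58.1, R 4.3.3; lmFit, trended eBayes), with Benjamini-Hochberg adjustment over all genes tested, two-sided, at 0.05. Separate fits were made for the 12 iPSC libraries (4 group means), the 6 wild-type undifferentiated ESC libraries (with experiment as covariate) and the 8 withdrawal libraries (genotype as covariate, or genotype by time). The fits were run on simulated reads with known fold changes to check sign and direction. Those reads had a fixed dispersion and no differences between lines, so the run cannot show how reliable calls are at the spread seen here. The iPSC passages and the withdrawal times come from the same lines, so line was also fitted as a block. Correlations between the 2 libraries of an iPSC line, as deviations from group means, were -0.037 to 0.103. Alternatives were log2(CPM + 1), log2(CPM + 5), a minimum mean of 4 CPM or none, median centring and voom on recovered reads. Each library of the groups compared was also left out in turn, except F121 in its comparisons with the Dusp9+/- libraries. Contrasts between 2 iPSC groups were also fitted on only the groups compared, and the ESC contrast on only the CM lines.

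Members and lists were chosen with earlier results of these data known. All 8 factors are named in every comparison, as are up to 3 called genes of each list with the smallest adjusted p, and the 3 genes most like each factor. Of the genes this rule names, 1 is not reported here.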

Additional observations from a re-analysis of the deposited data

How the results depend on the processing

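Of 17 called values of single factors, 7 kept their call in every alternative run and none changed direction. Of the 63 values that were not called, 10 passed the threshold in at least 1 alternative. For XX against XY iPSCs at P7 the count of 3 became 1 with voom and 1 with only the groups compared, and 5 without the 2 libraries that stand apart (LV21 at P7, LV22 at P13), and leaving out 1 library gave 0 to 5. For the female passage change the count of 2 became 0 with only the groups compared and 1 without those 2 libraries, and 0 to 4 when 1 library was left out. With line as a replicate block it became 3, which changed no other call of a factor. For the difference of the passage changes it went from 0 to 1 without those 2 libraries. In ESCs the count of 1 became 2 in the CM lines alone (1 to 2 with 1 library left out). On withdrawal the count of 5 ranged from 3 to 5. An alternative crossed the numbers of the 2 Dusp9+/- clones in the block, and was added after the data were seen. The reason was that deviations at 0 h and 24 h of the same clone number correlated at -0.369. It called 4493 genes and 5 factors, beside 3607 and 5 with the numbers as given. For libraries labelled Dusp9+/- at 0 h the count of 2 became 1 with log2(CPM + 5), 1 with voom, 1 at a minimum of 4 CPM and 0 with no filter. Over all genes, calls ranged from 44 to 1818 for XX against XY iPSCs at P7 (668 as reported), 174 to 2079 for the female (1258) and 429 to 2418 for the male passage change (1823), and 0 to 364 for their difference (0). They ranged from 208 to 1690 in ESCs (1020), 3086 to 4994 on withdrawal (4688), 200 to 1953 and 0 to 395 for the libraries labelled Dusp9+/- at 0 h (1277) and 24 h (366), and 0 to 24 for the difference of withdrawal changes (0).

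Reversed signs occurred only in factors that were not called. Without the 2 libraries that stand apart, Sall4 in XX against XY at P7 stood at 0.04, Dppa4 in XO against XY at 0.06 and Utf1 in the difference of passage changes at 0.14. In the CM lines alone Dppa4 stood at 0.11, and with median centring Lin28a in the libraries labelled Dusp9+/- at 0 h at -0.02. Leaving out 1 library gave ranges of -0.07 to 0.07 for Sall4 in XX against XY at P7. For XO against XY they were -0.15 to 0.06 for Dppa4 and -0.09 to 0.37 for Utf1. They were -0.20 to 0.06 for Sox2 with passage in male lines, and -0.20 to 0.01 for Dppa4 and -0.35 to 0.16 for Utf1 in the difference of passage changes. For Dppa4 in XX against XY ESCs the range was -0.24 to 0.11. In the libraries labelled Dusp9+/- at 0 h it was -0.03 to 0.20 for Pou5f1, -0.15 to 0.03 for Sox2 and 0.00 to 0.08 for Lin28a. Leaving out a clone there leaves 1 library on each side. At 24 h it was -0.24 to 0.23 for Dppa4, and in the difference of withdrawal changes -0.15 to 0.32 for Dppa4 and -0.05 to 0.47 for Utf1. The cause of these changes was not tested. Depth limits Foxd3 most, which had 12 reads in LV8 at P7.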
